A study of Mus musculus with 5 samples.

Results

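Chemokines are small secreted proteins that guide cells along gradients, and chemokine receptors are the G protein-coupled receptors that read them. The genes described are the autosomal protein-coding genes of the mouse whose symbols begin with Ccl, Cxcl, Xcl, Cx3cl, Ccr, Cxcr, Xcr or Cx3cr followed by a digit: 56 of 21321 autosomal protein-coding genes, of which 37 encode ligands and 19 encode receptors. Membership was set by symbol and not by any measured value. 1 X-linked gene with a matching symbol was left out. The data are ChIP-seq of CD4+CD8+ double-positive (DP) thymocytes, the stage at which developing T cells are selected. WT mice were Cxxc1 fl/fl, with exons 4 and 5 of Cxxc1 between loxP sites, and Cxxc1-deficient mice carried the same floxed alleles with hCD2-Cre, a Cre under the human CD2 promoter that acts in early thymocytes and in other immune cells too. The study used mice 3 to 4 weeks old unless it says otherwise. 3 lists of 200-bp windows on mm9 were available, each from 1 library: Cxxc1 ChIP (assigned to WT cells by the methods, since the list itself names no genotype), H3K4me3 ChIP in WT cells and H3K4me3 ChIP in Cxxc1-deficient cells. The titles of the deficient samples say knockout and their genotype label says heterozygote; the titles were followed.

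DP thymocytes are found in the thymic cortex, where Cxcr4 reads Cxcl12 and Ccr9 reads Ccl25. After positive selection, Ccr4 and Ccr7 draw cells to the medulla, where Ccl17, Ccl22, Ccl19 and the Ccl21 proteins are made, largely by cells other than thymocytes. H3K4me3 is a histone mark of active and poised promoters, and Cxxc1 is a CpG-binding subunit of the Setd1 complex, which writes it. A mark at a promoter is not a measure of transcript level.

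The promoters of 4 genes of these axes, some listed and some not, and the Cxxc1-bound stretch are shown. Each is read 5′ to 3′ on the strand of its gene from the mm9 genome, ends before the transcription start site (TSS) except for Ccr6, and leaves out annotated untranslated exons. Capitals mark CpG dinucleotides, the bases that the CXXC domain of Cxxc1 can bind when unmethylated.
Cxcr4 promoter, H3K4me3 listed in WT, chr1:130488871-130489120, minus strand: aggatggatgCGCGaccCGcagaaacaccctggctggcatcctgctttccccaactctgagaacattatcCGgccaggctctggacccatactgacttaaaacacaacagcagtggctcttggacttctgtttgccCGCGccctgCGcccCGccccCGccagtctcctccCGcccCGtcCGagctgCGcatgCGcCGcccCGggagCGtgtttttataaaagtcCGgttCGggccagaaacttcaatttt
Ccl25 distal start shared with Elavl1, H3K4me3 listed in WT, chr8:4325101-4325209, plus strand: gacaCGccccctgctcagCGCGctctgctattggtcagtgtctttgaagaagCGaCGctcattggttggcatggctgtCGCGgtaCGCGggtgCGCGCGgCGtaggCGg
Ccl25 downstream start, not listed, chr8:4349338-4349587, plus strand: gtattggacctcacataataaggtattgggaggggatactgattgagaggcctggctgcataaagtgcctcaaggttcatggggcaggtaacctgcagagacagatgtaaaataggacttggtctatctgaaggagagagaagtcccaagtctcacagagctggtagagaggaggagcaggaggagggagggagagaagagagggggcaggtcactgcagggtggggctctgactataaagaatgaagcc
Ccr9 distal start, not listed, chr9:123587307-123587556, plus strand: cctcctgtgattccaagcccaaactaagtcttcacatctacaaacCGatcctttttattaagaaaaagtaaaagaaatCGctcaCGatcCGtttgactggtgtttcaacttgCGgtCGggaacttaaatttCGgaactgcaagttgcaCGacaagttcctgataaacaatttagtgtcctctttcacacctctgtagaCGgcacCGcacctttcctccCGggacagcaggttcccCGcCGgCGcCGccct
Ccr9 downstream start, not listed, chr9:123676079-123676328, plus strand: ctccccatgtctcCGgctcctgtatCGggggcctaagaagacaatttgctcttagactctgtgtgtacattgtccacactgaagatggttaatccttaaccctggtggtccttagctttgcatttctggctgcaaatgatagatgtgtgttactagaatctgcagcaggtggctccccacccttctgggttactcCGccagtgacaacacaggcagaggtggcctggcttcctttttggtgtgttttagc
Ccr7 promoter, not listed, chr11:99016392-99016641, minus strand: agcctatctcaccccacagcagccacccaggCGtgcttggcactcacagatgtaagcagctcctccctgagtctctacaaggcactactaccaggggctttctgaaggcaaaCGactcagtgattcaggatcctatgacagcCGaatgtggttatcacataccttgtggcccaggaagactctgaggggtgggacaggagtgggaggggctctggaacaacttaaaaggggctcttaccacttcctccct
Ccr6 coding end under the strongest window of its Cxxc1 peak, chr17:8449801-8449930, plus strand: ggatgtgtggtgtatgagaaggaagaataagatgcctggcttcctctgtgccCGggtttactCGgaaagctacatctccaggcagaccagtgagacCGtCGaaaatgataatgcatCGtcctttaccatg
The Cxcr4 run holds 19 CpGs in 250 bases and the 109 bases shown for the distal Ccl25 start hold 14. The Ccr7 run and the run before the downstream Ccr9 start hold 3 each, and the downstream Ccl25 run holds 0. The distal Ccr9 start, with 15 CpGs, was CpG-rich and still carried no listed window in any of the 3 lists.

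Few of the 56 genes carried a listed window at a promoter. Within 1 kb of a TSS, 2 genes, Cxcr4 and Ccl25, were listed for H3K4me3 in WT cells, which is 3.57% (95% Wilson interval 0.985% to 12.1%) against 32.5% of all autosomal genes. In Cxxc1-deficient cells 1 gene, Cxcr5, was listed, 1.79% (0.316% to 9.45%) against 6.12% of all genes. Cxxc1 was listed at 0 of 56 promoters, which allows a share of up to 5.36%, beside 2.03% of all genes. Together 3 of the 56 genes had a promoter window in any list, against 35.5% of all genes. These intervals cover counting error only, and with 1 library per list no test between genotypes or gene classes could be made. Genes of a cluster share their neighbourhood and are not replicates of each other.

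Over the gene body and 10 kb upstream, more receptors than ligands were listed. In WT cells 9 of the 56 genes held an H3K4me3 window, 16.1% (8.69% to 27.8%) against 43.3% of all genes. These were 7 of 19 receptors, 36.8% (19.1% to 59%), and 2 of 37 ligands, 5.41% (1.5% to 17.7%). Some of their windows lie near the start of a neighbouring gene, and without windows near other TSSs the 9 genes fell to 7. In Cxxc1-deficient cells 4 genes were listed, 7.14% (2.81% to 17%) against 11.4%, and each of the 4 encodes a receptor. For Cxxc1 the count was 1, the receptor gene Ccr6, or 1.79% (0.316% to 9.45%). All genes were at 11.6%, and genes without a CpG island (defined below) at 6.36%. In any list, 9 of 19 receptors, 47.4% (27.3% to 68.3%), and 2 of 37 ligands held a window, with 49.9% over all genes, and 45 members held none. The receptor share was thus near that of all genes and the ligand share was under it. Most members lack a CpG island. Genes without one were listed less often, 17.9% in WT H3K4me3 and 23.5% in any list, and both receptor shares were above these. Of 47 members without an island, 6 were listed in WT H3K4me3, 12.8% (5.98% to 25.2%), and 7 in any list, 14.9% (7.41% to 27.7%). These differences were not tested. Interleukin and interleukin receptor genes, taken as a family of the same kind of products, were listed in WT cells at 18 of 80 promoters, 22.5% (14.7% to 32.8%), and at 29 of 80 gene regions, 36.2% (26.6% to 47.2%).

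**Figure D1:**
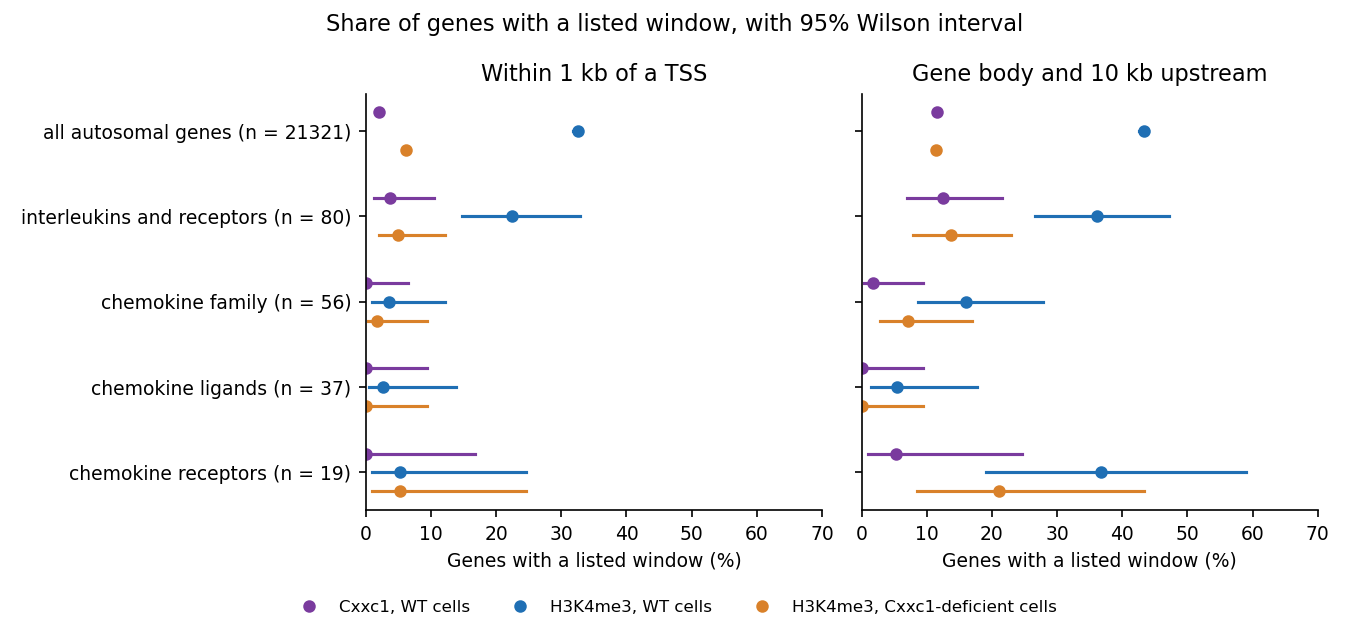
Share of genes, in percent, with a listed window within 1 kb of a TSS (left) and in the gene body or 10 kb upstream (right); points are shares, lines 95% Wilson intervals, and colours the 3 lists of 1 library each. In WT H3K4me3, chemokine receptors reach 36.8% over the gene region while ligands stay at 5.41%, and at promoters the whole family is at 3.57%.

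Chemokine genes are short, and a longer gene offers more room for a window. The median span was 4.96 kb for the 56 genes, 3.12 kb for ligands and 9.72 kb for receptors, against 15.6 kb for all genes. Among genes no longer than 15.6 kb, 7 of 50 members, 14% (6.95% to 26.2%), and 34.9% of all genes held a WT H3K4me3 window over the gene region.

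Cxcr4, the receptor for Cxcl12 and the strongest of the family, held 12 WT H3K4me3 windows in 1 peak of 6.1 RPM (reads per 1000000 mapped reads, summed over windows). The peak spans chr1:130487601-130490600, across the TSS at position 130488870 on the minus strand. It equals about 58 tags (exact Poisson interval 44 to 75) and lay above 98.1% of all WT peaks. The strongest window, of 1 RPM, was centred at -230 bp from the TSS, and the other 11 held 0.2 to 0.8 RPM. Within 1 kb of the TSS, 8 windows summed to 4.8 RPM, 0.6 RPM per window, higher than 96.9% of listed WT promoters. In Cxxc1-deficient cells no window was listed at Cxcr4, and the nearest one lay 152467 bp from the TSS. The nearest Cxxc1 window lay 757667 bp away.

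Ccr7, which reads Ccl19 and Ccl21, had no window within 1 kb of its TSS in any list. WT H3K4me3 lay instead in its introns, in a peak of 2.9 RPM at chr11:99008001-99010000, centred 7.39 kb downstream of the TSS, and in a peak of 1.5 RPM centred 5.09 kb downstream. Together the 12 windows of Ccr7 summed to 4.4 RPM. In Cxxc1-deficient cells a peak of 2.3 RPM covered the 3′ end of the gene, with 2 windows of 0.3 RPM each inside it, and no window of this peak overlapped a WT window.

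Ccr9, the Ccl25 receptor of thymocytes, was listed neither for H3K4me3 in WT cells nor for Cxxc1, over a gene model of 103533 bp. The nearest WT H3K4me3 window lay 83454 bp from a TSS and the nearest Cxxc1 window 75454 bp. The Cxxc1-deficient list held 1 peak there, of 2.4 RPM or about 23 tags (14.6 to 34.5), at chr9:123630201-123632400. It sits in an intron of the long model, 43.74 kb downstream of the distal start and 4.56 kb from a start of the neighbouring gene Lztfl1. None of its 9 windows was above 0.3 RPM, and the stretch held 7 CpGs, 3.18 per kb. A place with no listed window fell below the calling threshold, and its signal is unknown and not 0. The lowest listed peak held about 10 tags in each list.

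**Figure D2:**
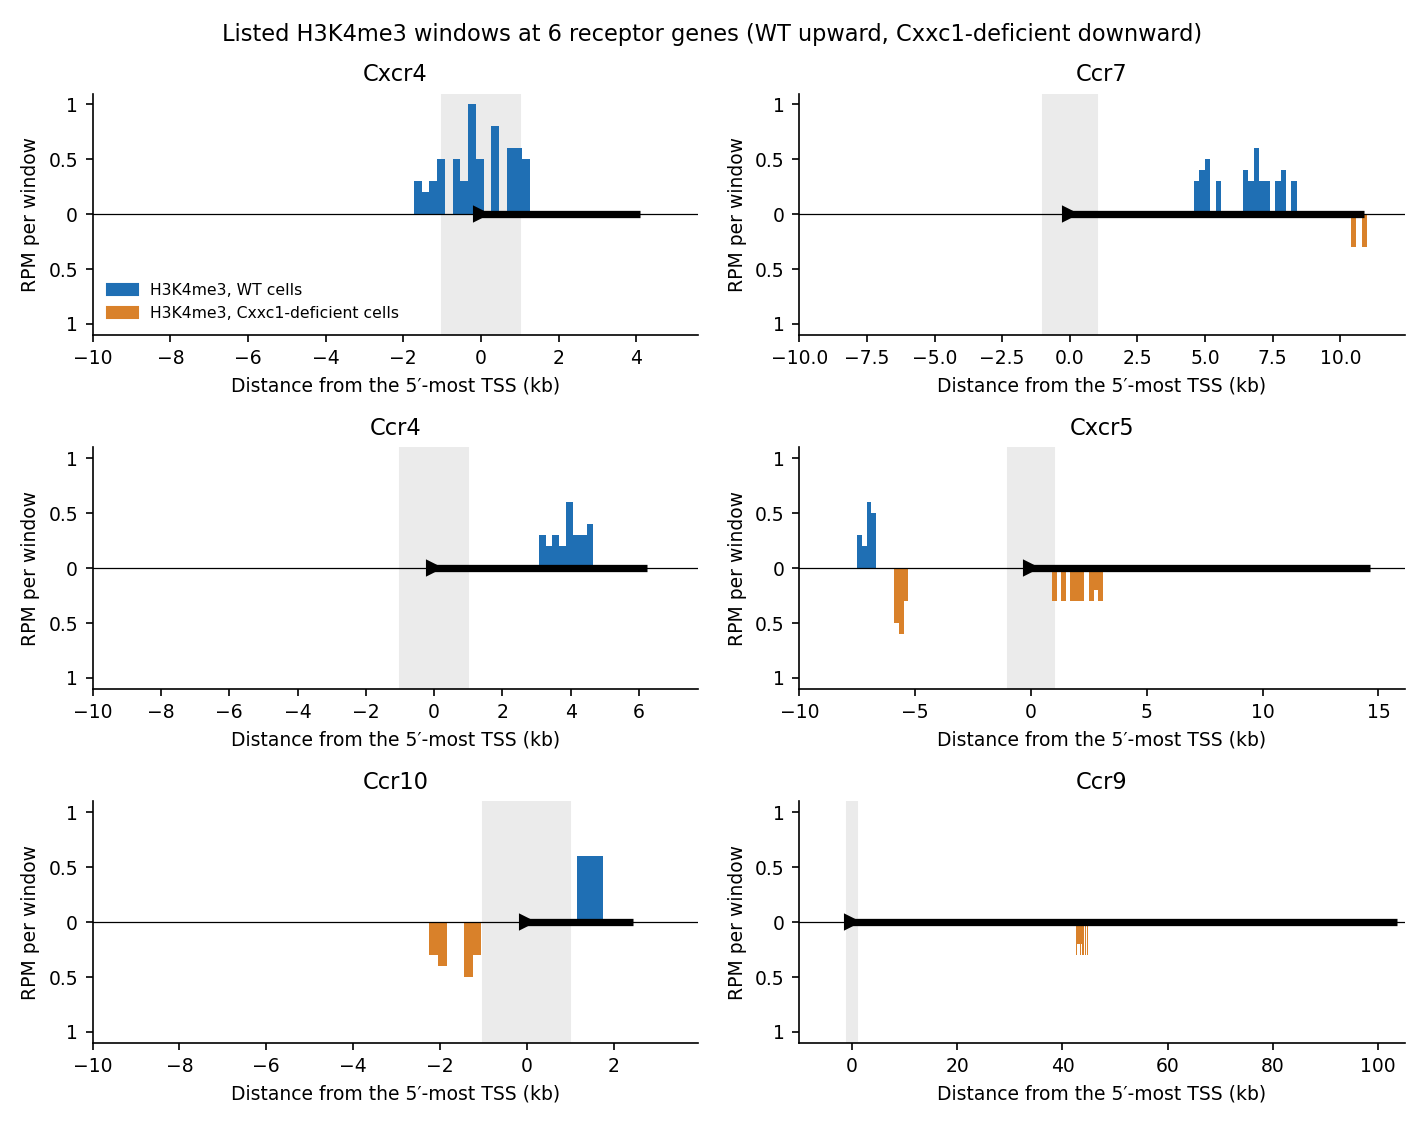
Listed H3K4me3 windows at 6 receptor genes against distance from the 5′-most TSS in kb; bars are RPM per 200-bp window, upward for WT and downward for Cxxc1-deficient cells, the black bar is the gene and grey marks 1 kb on each side of the TSS. Only Cxcr4 has WT windows over its TSS, the WT windows of Ccr7, Ccr4 and Ccr10 lie inside the genes, the deficient windows of Ccr10 lie upstream of its TSS, and WT and deficient windows do not overlap at any of the 6.

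Other receptor genes carried H3K4me3 away from their TSSs. Ccr4, the receptor for Ccl17 and Ccl22, had a WT peak of 2.6 RPM at chr9:114401001-114402600, mostly over exon, centred 3.86 kb downstream of its 5′-most TSS, with no window in the other lists. Cxcr5, the Cxcl13 receptor, had a WT peak of 1.6 RPM centred at -7.1 kb, upstream of its TSS. In Cxxc1-deficient cells Cxcr5 had 2 peaks at other places, 2.3 RPM in an intron centred 2 kb downstream and 1.4 RPM centred at -5.6 kb. The intronic peak reached to 904 bp from the TSS, so that 1 window of 0.3 RPM, about 3 tags, fell within 1 kb. Cxcr5 was the 1 member with more listed signal in deficient than in WT cells among those listed in both, 3.7 against 1.6 RPM over the gene region.

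Ccr10, which reads Ccl27 and Ccl28, had a WT peak of 1.8 RPM in an exon 1.46 kb downstream of its TSS. In Cxxc1-deficient cells it had a peak of 1.5 RPM centred at -1.64 kb, and both peaks overlap the neighbouring gene Cntnap1. Cx3cr1, the fractalkine receptor of myeloid and some lymphoid cells, had a WT intronic peak of 1.9 RPM centred 12.8 kb downstream of its TSS. Xcr1, the Xcl1 receptor of cross-presenting dendritic cells, held 3 WT windows summing to 0.8 RPM at its 3′ end. These belong to a peak of 2.8 RPM whose midpoint is 0.12 kb from a Fyco1 start. Ccr6, which reads Ccl20, had the only Cxxc1 peak of the family, 1.4 RPM or about 13 tags (6.92 to 22.2), at chr17:8449401-8450000 over its last exon, 20.62 kb downstream of the 5′-most TSS. This peak was weak, above 5.24% of Cxxc1 peaks, and no H3K4me3 window overlapped it. The other 10 receptors, such as Cxcr2, a receptor of neutrophils, Cxcr6, which reads Cxcl16, and Ccr8, which reads Ccl1, had no window in any list.

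**Figure D3:**
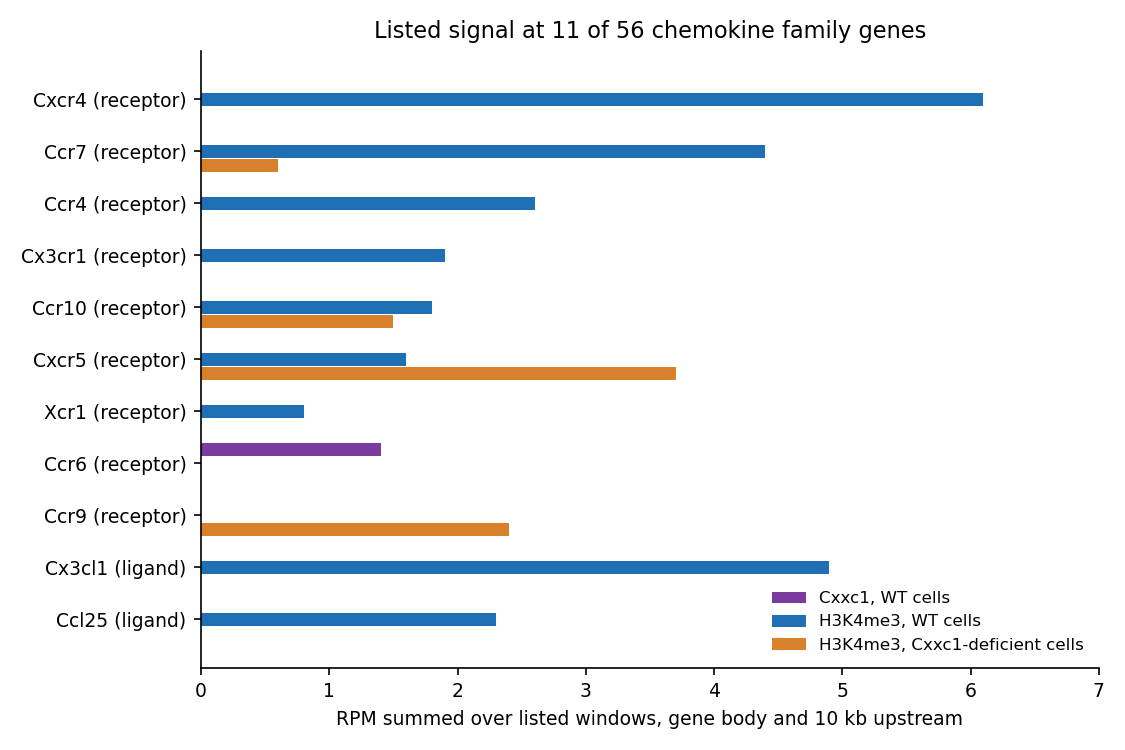
RPM summed over listed windows in the gene body and 10 kb upstream for the 11 members with a window in any list; bars are 1 library each, and no bar means that no window was listed. Cxcr4 leads in WT cells at 6.1 RPM, Ccr9 has signal in the deficient list only, and Ccr6 in the Cxxc1 list only.

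Among the 37 ligand genes, H3K4me3 was listed at Ccl25 and Cx3cl1. Ccl25, the Ccr9 ligand of cortical epithelium and small intestine, had a WT peak of 2.3 RPM, about 22 tags (13.8 to 33.3), at chr8:4324201-4325800. That peak covers the distal Ccl25 start and the start of Elavl1, which is 0.1 kb from the midpoint of the peak. Elavl1, a ubiquitous RNA-binding protein gene, reads in the opposite direction, so the window cannot be assigned to either gene. The downstream Ccl25 start at position 4349588 carried no window. Cx3cl1, a membrane-bound chemokine also called fractalkine, had WT peaks of 3 and 1.9 RPM centred 6.99 and 9.89 kb downstream of its TSS, and none at the TSS. The 15 inflammatory ligands measured, such as Ccl2, Ccl3, Ccl5, Cxcl1 and Cxcl10, had a window in 0 of 15 gene regions in all 3 lists, which allows a share of up to 20% in each. Over all genes the shares were 43.3% for WT H3K4me3, or 34.9% among genes up to 15.6 kb, 11.4% for deficient H3K4me3 and 11.6% for Cxxc1, and the limit of 20% takes in the last 2 of these. All 15 lack a CpG island (defined below). Among genes without one the WT H3K4me3 share was 17.9%, which the limit of 20% takes in too. Of 9 homeostatic ligands, Ccl25 alone was listed, in WT H3K4me3, which is 11.1% (1.99% to 43.5%). This interval takes in the WT shares of all genes, 32.5% at promoters and 43.3% over gene regions. Ccl19, Ccl21a, Ccl21b, Ccl21c and Ccl27a of these 9 could hardly be listed from uniquely mapped reads. Cxcl12, the partner of Cxcr4, has a CpG-rich promoter (14 CpGs in 250 bp upstream), and its nearest WT window lay 493553 bp away. Cxcl11 and Ccl28 are not among the protein-coding symbols of the annotation used and were not analysed here.

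6 ligand genes could hardly be listed from uniquely mapped reads. Of 50-base words around their TSSs, 0% occurred once in the genome for Ccl19, Ccl21a, Ccl21c and Ccl27b, 5.02% for Ccl21b and 45.1% for Ccl27a. For Ccl19 and Ccl21, the Ccr7 ligands, a missing window therefore carries little information. The other 50 members were at least 84% unique, and among them WT H3K4me3 was listed at 2 promoters, 4% (1.1% to 13.5%), and 9 gene regions, 18% (9.77% to 30.8%).

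Between genotypes, no H3K4me3 peak of the family was shared. Of 11 WT peaks at members 0 overlapped a peak of the Cxxc1-deficient list, where 8.17% of all autosomal WT peaks did. Of 5 deficient peaks 0 overlapped a WT peak, where 38.6% of all did. With 11 and 5 peaks, counts of 0 cannot set the family apart from these shares. Both WT-listed promoters, Cxcr4 and Ccl25, were unlisted in deficient cells, 2 of 2 beside 87.2% of all 6923 WT-listed genes. Among WT promoters of 3.1 to 13.7 RPM, the class of Cxcr4, 81.7% were unlisted in deficient cells, and in the 2 to 2.4 RPM class of Ccl25 88.8% were. Not being listed says only that the place fell below the calling threshold in 1 library, and the Ccl25 windows are those shared with Elavl1. Cxcr5 was listed within 1 kb in deficient cells and not in WT, as were 32.1% of the 1304 genes with a deficient promoter window. The depth of the 2 H3K4me3 libraries, from the value of 1 tag, was close, at 9455000 to 9473000 tags in WT and 9436000 to 9454000 in deficient cells. The lists nevertheless differed in size, with 14237 WT peaks and 2979 deficient peaks. Which control each H3K4me3 list was called against is not given in the sources used here. Genotype, library and the control used for calling cannot be told apart.

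Most of the family had a CpG-poor promoter, as did most interleukin and interleukin receptor genes. A CpG island at a TSS (a stretch of 500 bp with at least 55% GC and a CpG observed to expected ratio of at least 0.65) was present at 9 of 56 members, 16.1% (8.69% to 27.8%), against 57.8% of all genes and 21.2% of interleukin genes. The median CpG ratio within 500 bp of the TSS was 0.21 for members, 0.22 for ligands and 0.2 for receptors, against 0.6 for all genes and 0.27 for interleukin and interleukin receptor genes. The 250 bp before a TSS held a median of 3 CpGs at members and 9 at all genes. The 9 members with an island were Ccl25, Ccr9, Cxcl14, Cxcl12, Cxcr4, Cxcl16, Ccl27b, Ccl27a and Cx3cl1. For Ccr9 the island was at the distal start alone, with a ratio of 0.93, while its downstream starts had 0.14. The island call scans 1 kb on each side of a TSS, so a member such as Cxcr4, at 0.63 within 500 bp, can carry it.

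Both members with a listed WT promoter, Cxcr4 and Ccl25, have an island. For Ccl25 it is at the distal start shared with Elavl1 alone, and the downstream Ccl25 start had a ratio of 0.13. WT H3K4me3 was listed at 2 of 9 members with an island, 22.2% (6.32% to 54.7%), beside 50.9% of all genes with one, and at 0 of 47 without, which allows a share of up to 6.38%, beside 7.21% of all genes without one. Interleukin genes without an island were listed at 11 of 63 promoters, 17.5% (10% to 28.6%). In Cxxc1-deficient cells 0 of 9 members with an island and 1 of 47 without were listed, beside 9.24% and 1.84% of all genes. For Cxxc1 the share was 0 of 9 and 0 of 47 members, beside 2.80% and 0.979% of all genes. The Wilson interval for 0 of 47 runs to 7.56%, which takes in the WT share of all genes without an island.

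**Figure D4:**
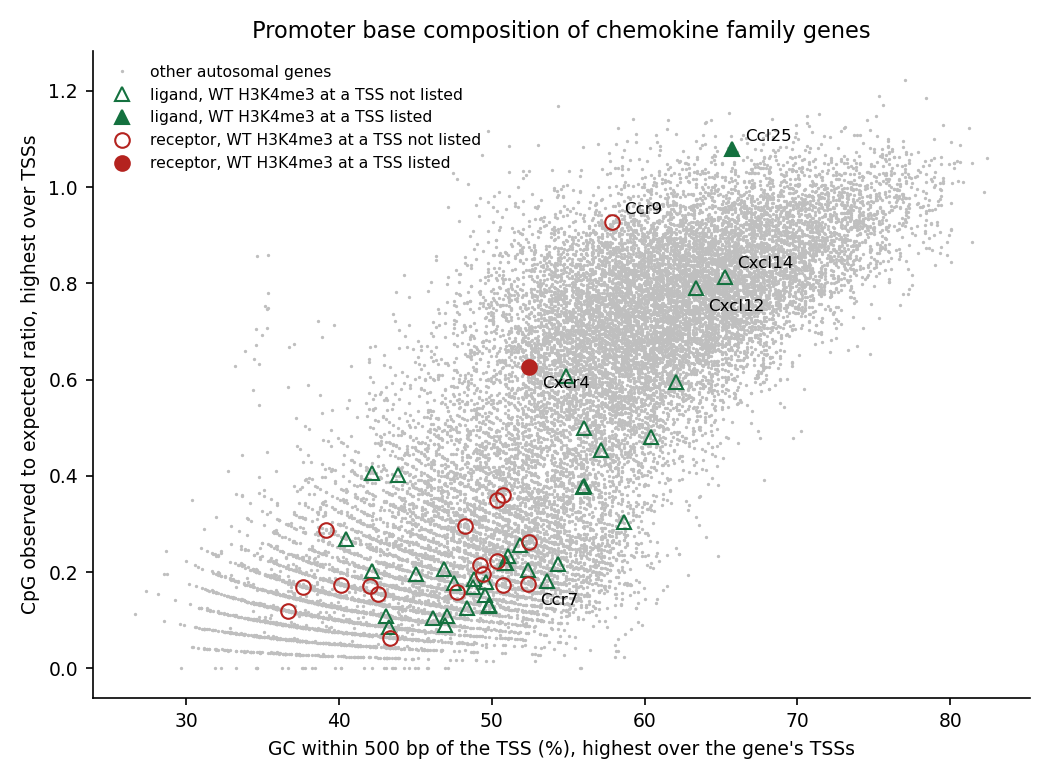
CpG observed to expected ratio against GC percent within 500 bp of the TSS (the highest over a gene's TSSs for each) for 56 members (triangles ligands, circles receptors) and all other autosomal genes (grey); filled symbols had WT H3K4me3 within 1 kb of a TSS. Most members lie near a ratio of 0.21, and the 2 filled symbols, Cxcr4 and Ccl25, are among the CpG-rich minority together with the unlisted Ccr9, Cxcl12 and Cxcl14.

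Short motifs were counted in the 250 bp before each TSS on both strands, as matches of letters and not as binding sites. TATAAA, the TATA box, was found before 21 of 89 member TSSs, 23.6%, against 10.5% of 43969 autosomal TSSs, and Cxcr4 carries it in the run printed above. TGTGGT, the core of RUNX sites, was found before 20.2% against 12.5%. A loose NF-kB pattern, 3 G, any 5 bases and 2 C, was found before 49.4% against 50.9%, and CAGNTG, an E protein site, before 39.3% against 42.8%. TSSs of 1 gene overlap in sequence, so these shares carry no test.

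Ligand genes lay far from WT H3K4me3. The median distance from a TSS to the nearest WT window was 122 kb for ligands (quartiles 35.1 and 258 kb), 41.4 kb for receptors (7.97 and 102 kb) and 23.4 kb for all genes, while genes with no island were at 104 kb. To the nearest deficient window it was 241 kb for ligands and 152 kb for receptors, against 193 kb for all genes, and to the nearest Cxxc1 window 190, 183 and 152 kb. Among the 50 members with mostly unique promoters, the largest WT distances were 536297 bp at Cxcl2, 523667 bp at Cxcl1 and 493553 bp at Cxcl12.

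Most chemokine genes sit in clusters, and most clusters were empty in all lists. With neighbours joined across gaps of up to 500 kb, 41 members formed 11 clusters and 15 stood alone. 8 clusters had 0 peaks in every list, among them the inflammatory Ccl clusters of chromosome 11, of 270.1 kb and 138.9 kb, and the 146.6 kb Cxcl cluster of chromosome 5. The chromosome 4 clusters, of 59 and 395.6 kb, were also empty, and they hold the 6 ligands with repeated promoters. The autosomes held 5.74 WT H3K4me3, 1.2 deficient H3K4me3 and 1.75 Cxxc1 peaks per Mb. No cluster was longer than 474.9 kb, so at these densities many would hold few peaks or none. The Ccl22, Cx3cl1 and Ccl17 cluster of chromosome 8 held 2 WT peaks, both at Cx3cl1. The Cx3cr1 and Ccr8 cluster held 1 WT peak. The receptor cluster of chromosome 9 that holds Ccr9 and Xcr1, with 8 members, held 1 peak of each list.

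**Figure D5:**
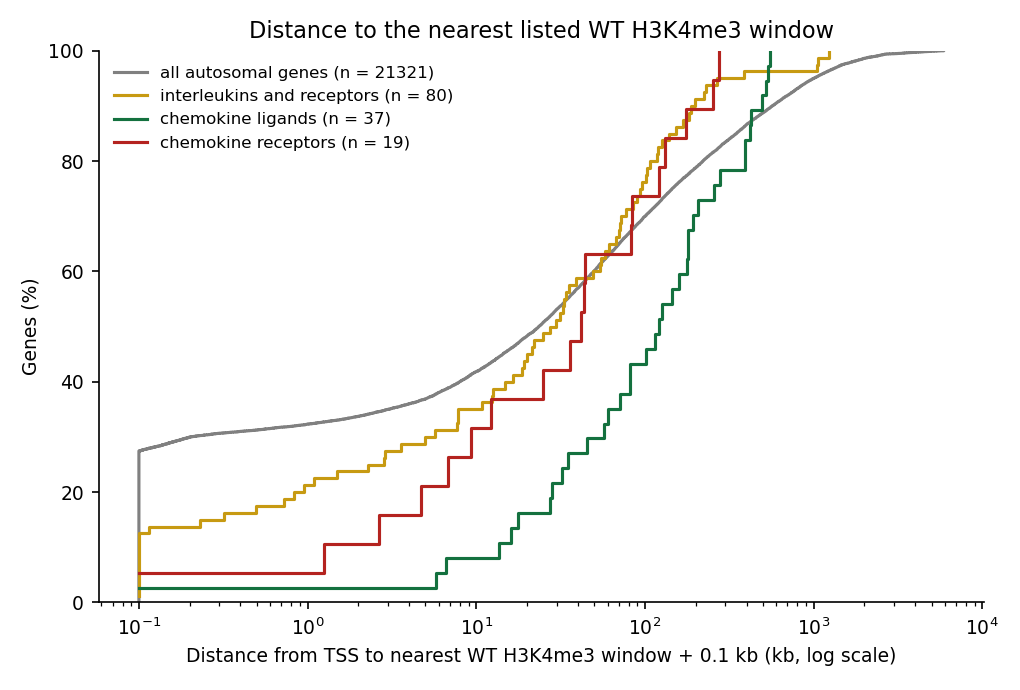
Cumulative share of genes, in percent, against the distance from a TSS to the nearest listed WT H3K4me3 window, plotted as distance plus 0.1 kb on a log axis; lines are gene classes. The ligand line lies to the right of the others through most of its range, with medians of 122 kb for ligands, 41.4 kb for receptors and 23.4 kb for all genes.

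The genes that carry the receptor signal inside the cell were listed at more promoters than the receptors. Of 38 signalling genes measured, 25 had WT H3K4me3 at a promoter, 65.8% (49.9% to 78.8%), against 1 of 19 receptors, 5.26% (0.935% to 24.6%), and 32.5% of all genes. A CpG island was present at 29 of the 38, and 20 of these 29 were listed, beside 50.9% of all genes with an island. The strongest were Gnb2, a G protein beta subunit, at 7.4 RPM over 17 windows, Adrbk1, a kinase that desensitizes receptors, at 5 RPM, Elmo1, a partner of the Rac activator Dock2, at 4 RPM, and Arrb1, beta-arrestin 1, and the Rac activator Tiam1 at 3.7 RPM each. Per listed window these were 0.44, 0.36, 0.36, 0.46 and 0.53 RPM, and Cxcr4 was at 0.6. In Cxxc1-deficient cells 4 signalling promoters were listed, 10.5% (4.17% to 24.1%) beside 6.12% of all genes: Tiam1 at 2.3 RPM, Rgs3, which limits G protein signalling, at 1.8 RPM, the small GTPase gene Rhoa at 2.5 RPM and Pik3r5, a subunit of a G protein-coupled PI3 kinase, at 2.3 RPM. Tiam1 and Rgs3 were listed in both genotypes, 23 genes in WT alone, and Rhoa and Pik3r5 in deficient cells alone. The 23 of 25 WT-listed promoters stand beside 87.2% of all WT-listed genes. The 2 of 4 deficient-listed promoters stand beside 32.1% of all deficient-listed genes. Counts this small cannot set the signalling genes apart from these shares. Cxxc1 was listed at 1 of these promoters, Rgs3, at 1 RPM, which is 2.63% (0.466% to 13.5%) beside 2.03% of all genes. The 7 related ligands and receptors with other symbols, Pf4, Ppbp, Mif, Darc, Ccbp2, Ccrl1 and Ccrl2, had 0 promoter windows in all lists. For 0 of 7 the Wilson interval runs to 35.4%, which takes in the share of all genes in each list.

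As a check of the cell type, 4 of 9 DP thymocyte markers measured had WT H3K4me3 at a promoter: Cd8a at 2.7 RPM, Cd8b1 at 3, Cd3e at 1.8 and Bcl11b at 2.3. That is 44.4% (18.9% to 73.3%), an interval that takes in the 32.5% of all genes. Cd4, Cd3d, Rag1, Rag2 and Themis did not, although these genes are known to be active at this stage. The promoters of the B cell (4), macrophage (4), dendritic cell (3), thymic epithelium (4), erythroid (3) and NK cell (2) markers had no WT window. With 2 to 4 genes per set, the Wilson intervals reach 49% to 65.8% and take in the share of all genes. These promoter counts therefore cannot show which cells were present. Over the gene body and 10 kb upstream, the region on which the receptor counts rest, WT windows were listed at 6 of 9 DP markers, but also at 2 of 4 macrophage markers (Csf1r and Cd68), 2 of 3 dendritic cell markers (Flt3 and the member Xcr1) and 1 of 3 erythroid markers (Epor), and at 0 of the B cell, epithelial and NK cell markers. For the DP markers the WT share over this region was 66.7% (35.4% to 87.9%), beside 43.3% of all genes. Deficient windows were listed there at 4 of 9 DP, 2 of 4 B cell and 1 of 3 erythroid markers, and at none of the others, beside 11.4% of all genes. The WT windows of Xcr1 belong to a peak whose midpoint is 0.12 kb from a Fyco1 start, so they cannot be assigned to Xcr1 alone. The part of other cells in the receptor windows was not tested. At promoters of the deficient list Cd8a, Cd3e, Rag1 and the erythroid gene Epor, at 1.9 RPM, were listed, beside 6.12% of all genes.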

How the data were processed

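ChIP-seq was performed on DP thymocytes with 1 library per group. Of 5 samples, the input and the Cxxc1 ChIP of deficient cells were not analysed here. Per the study's methods, the authors fixed chromatin with formaldehyde, sonicated it, took 50-bp reads with CASAVA 1.8.2, mapped them to mm9, kept unique reads and called regions with SICER 1.1, with input and Cxxc1-deficient ChIP DNA named as controls. Which control served each H3K4me3 list, the aligner and the treatment of duplicates are not given in the sources used here. Unique mapping leaves repeated promoters unlisted. The authors deposited, per list, the 200-bp windows of called regions with RPM to 1 decimal, and unlisted places have no value.

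Windows up to 2 missing windows apart were joined into peaks. The RPM of a peak is the sum over its windows. Tags were taken from the step of the RPM values, 0.1096 to 0.11 RPM for Cxxc1, 0.1056 to 0.1058 for WT and 0.1058 to 0.106 for deficient H3K4me3. The Cxxc1 depth was 9093000 to 9122000 tags. TSSs came from GENCODE for NCBIM37, with models of 1 symbol merged where they overlap, and overlap meant at least 1 bp. Python 3.11.15, numpy 2.4.6, pandas 2.3.3, scipy 1.17.1 and pysam 0.24.0 were used, tested on simulated data. Shares carry 95% Wilson intervals. Named are Ccr9, Ccr7, Cxcr4, every member with a promoter window or a Cxxc1 window, and the strongest pathway genes. Other members with a gene-region window, and some of those unlisted or with islands, were named after their values were seen, and 1 item is not reported here. Members and lists were chosen with earlier results of these data known.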

Additional observations from a re-analysis of the deposited data

How the results depend on the processing

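The calling threshold sets what can be listed: about 10 tags per peak and 2 tags per window, so weaker marks could not be seen in any list, and 1 library per list gives no replicate error. No paired analysis was possible because there was 1 library for each group. Of 64 alternative values for 16 results, 51 stayed within 1.5 times the reported value and 13 moved, and the cause was not tested beyond what each setting does by construction.

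With a 5 kb promoter, WT H3K4me3 was listed at 5 members (Cxcr4, Ccr7, Ccr10, Ccl25 and Ccr4, beside 37% of all genes), 4 of them receptors, and 4 of the 5 genes were unlisted in deficient cells. The share of all WT-listed genes unlisted in deficient cells was taken at 1 kb only, 87.2%. The 4 of 5 therefore cannot set the family apart from all genes. In deficient cells 2 members, both receptors, were listed with a 2 kb or 5 kb promoter (Ccr10 and Cxcr5, beside 6.55% and 7.84% of all genes), and 0 with a 500 bp promoter or with at least 2 windows required. Without windows near other TSSs, WT promoters fell to 1 (Cxcr4) and WT gene regions to 7. With 50 kb upstream, WT gene regions rose to 18 and Cxxc1 to 3 (Ccl20, Ccr6 and Cxcl17), and with the stronger 50% of peaks Cxxc1 fell to 0. The share of all genes with 50 kb upstream is not given here, and a wider region cannot lower it. The 50 kb counts therefore cannot be set against all genes. Counted as a whole peak, the Cxcr5 value in deficient cells was 2.3 RPM in place of 0.3. Splits by CpG island, gene length and promoter uniqueness were chosen after seeing the data.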
